A study of Mus musculus with 50 samples.

Results

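Myc and 35 genes of polyamine synthesis, folate uptake and ribosome building were examined in sorted mouse CD4 T cells of the regulatory lineage. The 36 genes were taken by name from the 55011 gene symbols of the count table. The rule used no measured value, but the genes were proposed with earlier results of these data known. By role they are Myc itself, 3 genes of polyamine synthesis and folate uptake (Odc1, Srm and Slc19a1), 2 subunits of RNA polymerase I (Polr1a and Polr1b) and 4 proteins of small nucleolar ribonucleoproteins. A further 6 encode nucleolar proteins, 9 encode processing factors of the small (40S) ribosomal subunit and 11 encode processing factors of the large (60S) subunit.

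Myc is a transcription factor that binds DNA with its partner Max and raises transcription of genes that a growing cell needs. Odc1 encodes ornithine decarboxylase, the rate-limiting enzyme that makes putrescine, and Srm encodes spermidine synthase, which turns putrescine into spermidine. Slc19a1 encodes the reduced folate carrier, and folate feeds the synthesis of nucleotides. In the nucleolus RNA polymerase I copies the ribosomal RNA genes, box C/D and H/ACA ribonucleoproteins modify the transcript, and processing factors cut it and assemble it into subunits. In T cells this set of genes is known for rising when a resting cell is activated through its antigen receptor and starts to grow.

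The series concerns regulatory T cells (Treg cells), CD4 T cells that restrain immune responses, and, by its title, how those made perinatally settle in visceral fat (visceral adipose tissue, VAT). All mice were labelled male, and each of the 50 RNA-seq libraries held 500 to 1000 double-sorted cells. In the thymus of B6.Cg-Foxp3tm1Kuch/J mice, which carry GFP under Foxp3, 18 libraries covered 2 progenitor populations at ages of 5, 12 and 49 days (D5, D12 and D49), with 3 libraries in each group. The P2 population was sorted as CD4+CD8-CD25-Foxp3+ and the P1 population as CD4+CD8-CD25+Foxp3-, so the sort fixed the difference in Foxp3 and in CD25, the product of Il2ra. The other 32 libraries were CD4+Foxp3GFP+ Treg cells from VAT (4 libraries in each arm) and from ear skin, lung, liver and spleen (3 in each arm) of mice 20 weeks old. Every peripheral library, of both arms, is labelled with the Foxp3tm3(HBEGF/GFP)Ayr allele on a B6.129(Cg) background, under which Foxp3 drives the diphtheria toxin receptor and GFP in Treg cells, and with the genotype WT. The sample titles set DT (diphtheria toxin) against PBS, whereas the series text describes littermates with and without the receptor, injected alike on 3 days at 12 weeks and rested for 8 to 9 weeks. The arms are therefore called DT-labelled and PBS-labelled, and which mice lost their Treg cells cannot be told from the labels. Nothing in the labels ties the libraries of a group to different animals, and p-values therefore reflect only how libraries vary. In sorted bulk cells, fewer cells of a type and less RNA per cell cannot be told apart.

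Total counts per library ran from 2521078 to 6981037. Foxp3 followed the sort, with group means of 272, 739 and 392 CPM (counts scaled to a common library size) in P2 cells at D5, D12 and D49, against 10.8, 8.55 and 13.1 CPM in P1 cells. In the 10 peripheral groups the Foxp3 means lay between 261 and 404 CPM. At equal depth, the 3 P1 libraries of D12 and P2 libraries 2 and 3 of D49 held 24539 to 29456 detected genes, against 16841 to 19085 in the other thymus libraries. The 6 ear skin libraries held 27089 to 32046 and PBS-labelled lung library 2 held 30836, against 19431 and 20936 in the other PBS-labelled lung libraries and 20120 to 25789 in the 6 spleen libraries. PBS-labelled spleen library 1 had the highest total of the series. Cd4 was at 336 to 356 CPM in the P1 libraries of D12 and at 387 and 237 CPM in P2 libraries 2 and 3 of D49. The other thymus libraries had 650 to 933 CPM of Cd4. In every comparison with P1 cells of D12, the group and these traits of its libraries cannot be told apart. P2 libraries 2 and 3 of D49 are left out together as an alternative, and results that rest on any single library are named beside their values.

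Levels of the 36 genes were summarised as a score, the mean over the genes of log2 CPM after TMM scaling, in each library. No test was made on the score, because the genes were chosen with results of these data known. The 3 P1 groups had the highest scores, with 6.98 ± 0.036 at D5, 6.87 ± 0.118 at D12 and 6.82 ± 0.026 at D49 (SD, n = 3 each). The P2 groups were lower, with 6.03 ± 0.080 at D5, 5.72 ± 0.024 at D12 and 5.63 ± 0.136 at D49. Of the peripheral Treg groups, PBS-labelled spleen (6.35 ± 0.142) and PBS-labelled VAT (6.26 ± 0.105, n = 4) had the highest means. Their libraries overlapped those of PBS-labelled ear skin (5.96 to 6.45), DT-labelled VAT (6.10 to 6.36) and DT-labelled spleen (6.04 to 6.29), so this order is not resolved. DT-labelled ear skin (5.62 ± 0.103) was among the lowest, its libraries overlapping those of P2 cells of D49. With RLE size factors in place of TMM scaling, DT-labelled ear skin was at 5.77, above P2 cells of D12 (5.70) and D49 (5.70). The lowest P1 library had a score of 6.74, above every other library of the series, of which PBS-labelled spleen library 1 was highest at 6.51. Thymic and peripheral libraries differ at once in strain, age, treatment and sorted cells. Wherever they are set side by side here, these cannot be told apart. Per kilobase of exon, and averaged over all 50 libraries, Npm1 had the highest level with 232 CPM per kb, followed by Myc with 66.6, Ncl with 62.1 and Nop56 with 54.6 CPM per kb. The length was the union of all annotated exons, 10188 bases for Ncl and 2717 bases for Myc, and the order depends on it. Before division by length Ncl averaged 633 CPM and Myc 181 CPM. Utp20 had the lowest level, 2.48 CPM per kb.

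**Figure D1:**
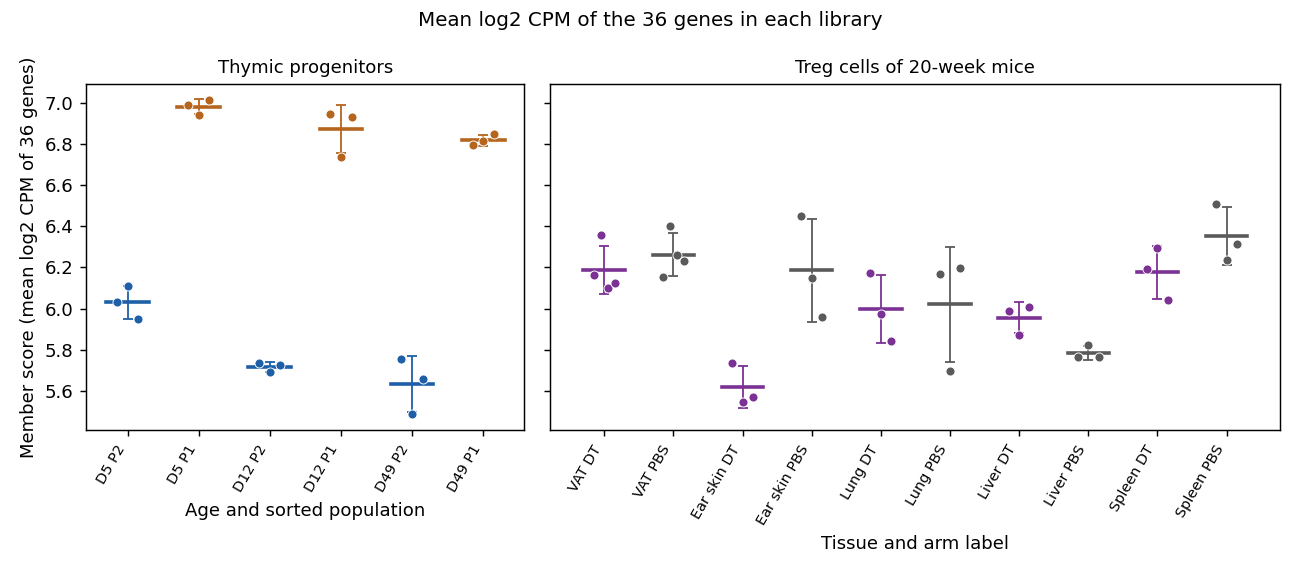
Score of the 36 genes (mean log2 CPM) in each library, with thymic progenitors in the left panel and peripheral Treg cells in the right panel. Points are libraries, the bar is the group mean and the error bar the SD; every P1 library (6.74 and above) lies over every P2 library and every peripheral library.

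Thymic P2 cells carried less RNA of nearly all of these genes than P1 cells of the same age. At D5, 33 of the 36 genes were lower in P2 cells by the edgeR quasi-likelihood test (adjusted p under 0.05 over all genes tested) and none was higher, while 8.4% of all 14696 genes tested were lower. At D12, 35 were lower and none higher, against a background of 23.8% lower. At D49, 34 were lower and none higher, against 12.9%. The median log2 fold change over the 36 genes was -0.91 at D5, -1.02 at D12 and -1.15 at D49, where the median over all genes tested was -0.00, -0.08 and 0.10. Of the 36 genes, 31 were called lower at all 3 ages, 4 at 2 ages (Srm, Fbl, Heatr1 and Rrs1) and Polr1a at D5 alone. For 29 genes each of the 9 P2 libraries lay below each of the 9 P1 libraries, whatever the age, and the like share over all genes was not counted. Leaving out single libraries gave 29 to 32 lower genes at D5, 32 to 34 at D12 and 31 to 34 at D49.

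**Figure D2:**
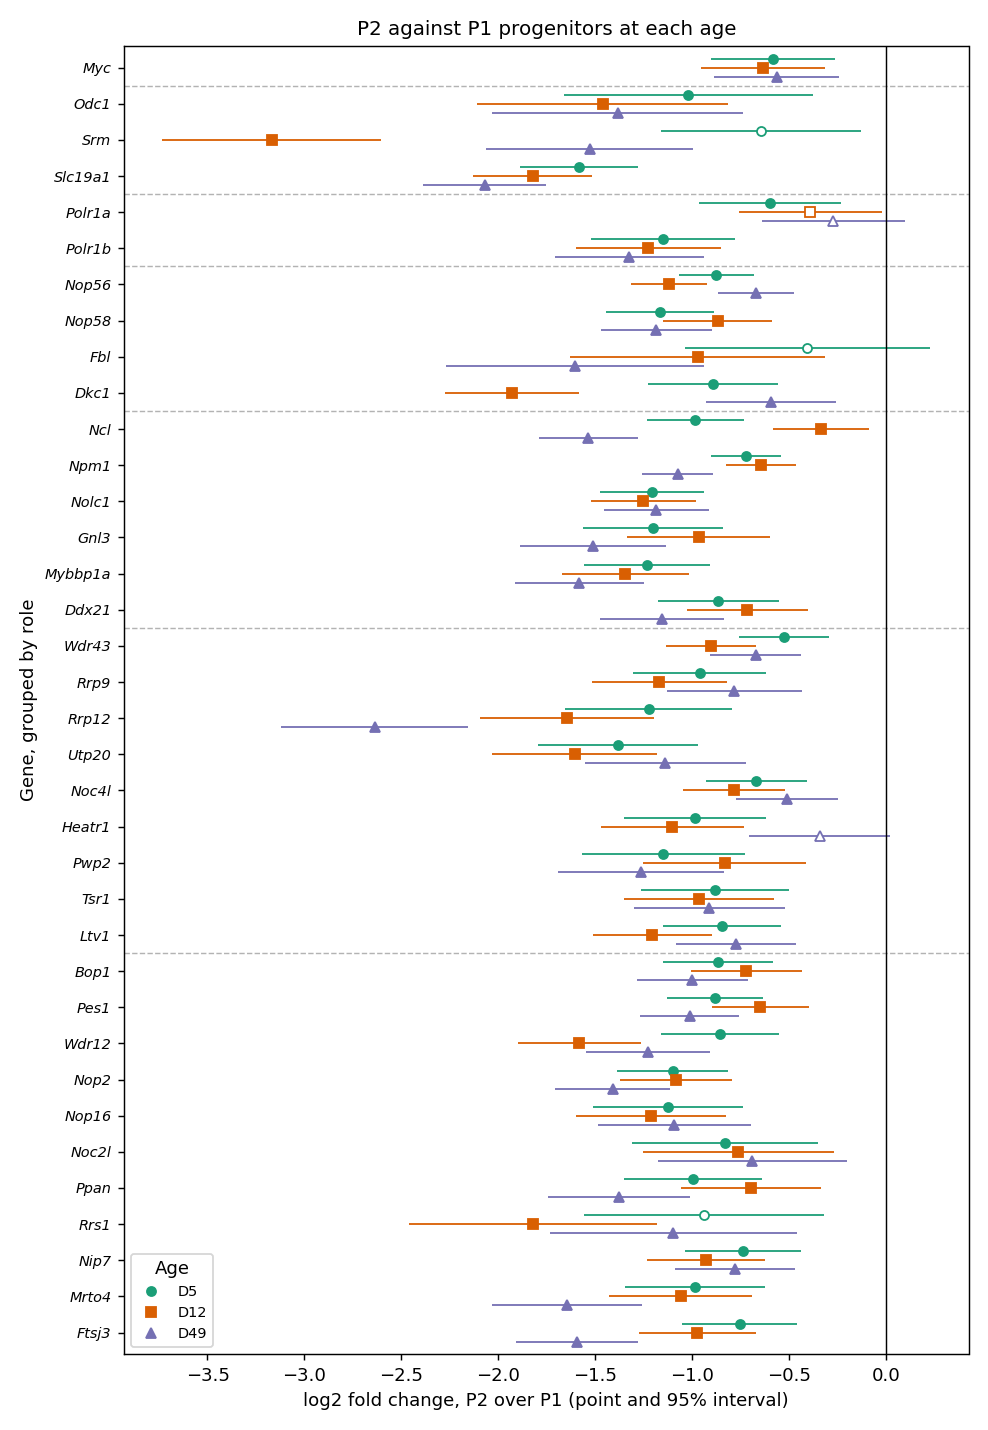
Log2 fold change of P2 over P1 cells for the 36 genes at D5, D12 and D49, ordered by role; bars are 95% intervals, filled points passed the edgeR test (adjusted p under 0.05) and open points did not. The filled points (33, 35 and 34 of the 36 genes) all lie left of 0, and Srm at D12 has the lowest value, -3.17.

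Myc was lower in P2 cells at each age. At D5 it had 197, 183 and 177 CPM in P2 cells, against 293, 275 and 282 CPM in P1 cells (log2 fold change -0.58 ± 0.16 (SE), adjusted p = 0.0173). At D12 it had 216, 148 and 190.5 CPM in P2 cells, against 298, 237 and 342 CPM in P1 cells (log2 fold change -0.63 ± 0.16 (SE), adjusted p = 0.00447). At D49 it had 131, 92.2 and 161 CPM in P2 cells, against 178, 204 and 199 CPM in P1 cells (log2 fold change -0.56 ± 0.17 (SE), adjusted p = 0.0158). Within each age every P2 library lay below every P1 library, but the P1 libraries of D49 overlapped the P2 libraries of D5 and D12. The D5 call was lost when P1 library 1 (adjusted p = 0.0613) or 3 (0.0506), or P2 library 2 (0.0688) or 3 (0.0757) was left out. The D49 call was lost without P1 library 2 (0.0543) or P2 library 2 (0.0715), and in a fit of the compared libraries alone (0.147).

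Of the 3 genes of polyamine synthesis and folate uptake, 2 were lower in P2 cells at D5 and all 3 at D12 and D49. Slc19a1 had 29.8, 33.9 and 27.3 CPM in P2 cells of D5, against 99.5, 87.4 and 90.7 CPM in P1 cells (log2 fold change -1.58 ± 0.16 (SE), adjusted p = 4.33e-07). At D49 Slc19a1 had 20.2, 17.98 and 27.3 CPM in P2 cells, against 87.8, 99.4 and 96.4 CPM in P1 cells (log2 fold change -2.07 ± 0.16 (SE), adjusted p = 2.08e-08), and at D12 its log2 fold change was -1.82, adjusted p = 4.09e-08. The P2 libraries of all ages lay below the P1 libraries. Odc1, the first enzyme of the polyamine pathway, was low in both populations. At D12 Odc1 had 8.28, 5.32 and 10.96 CPM in P2 cells, against 30.1, 20.3 and 18.9 CPM in P1 cells (log2 fold change -1.46 ± 0.33 (SE), adjusted p = 0.00164), and at D49 its log2 fold change was -1.38, adjusted p = 0.00435. At D5 Odc1 had 8.94, 10.03 and 7.45 CPM in P2 cells, against 16.5, 12.6 and 25.3 CPM in P1 cells (log2 fold change -1.02 ± 0.33 (SE), adjusted p = 0.0391). That D5 call was lost without a filter on low counts (0.0823) and when any of 5 single libraries was left out (0.0713 to 0.276).

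Srm, the spermidine synthase gene, differed most at D12. It had 11.8, 20.3 and 33.9 CPM in P2 cells of D12, against 225, 178 and 208 CPM in P1 cells (log2 fold change -3.17 ± 0.29 (SE), adjusted p = 7.99e-08). At D49 Srm had 43.6, 39.8 and 49.8 CPM in P2 cells, against 131, 113 and 151 CPM in P1 cells (log2 fold change -1.53 ± 0.27 (SE), adjusted p = 0.000335). These libraries do not overlap within either age. At D5 it had 56.4, 57.7 and 60.9 CPM in P2 cells and 55.99, 95.1 and 127 CPM in P1 cells, the lowest P1 library lay below all 3 P2 libraries, and the difference did not pass the test (log2 fold change -0.64 ± 0.26 (SE), adjusted p = 0.112). Rrs1, a 60S assembly factor, overlapped too at D5, with 38.7, 37.4 and 34.6 CPM in P2 cells and 37.8, 80.6 and 97.1 CPM in P1 cells (log2 fold change -0.94 ± 0.32 (SE), adjusted p = 0.0504). P1 library 1 of D5 is the low library for both genes, and without it the adjusted p of Srm at D5 was 0.021.

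The 2 subunits of RNA polymerase I differed in how they separated P2 from P1 cells. Polr1b, the second-largest subunit, had 36.2, 41.4 and 35.1 CPM in P2 cells of D5, against 88.5, 90.02 and 76.2 CPM in P1 cells (log2 fold change -1.15 ± 0.19 (SE), adjusted p = 0.000194), and at D12 and D49 its log2 fold changes were -1.23, adjusted p = 4.63e-05, and -1.32, adjusted p = 4.65e-05. Polr1a, the largest subunit, had 62.8, 62.8 and 63.6 CPM in P2 cells of D5, against 107, 104 and 80.8 CPM in P1 cells (log2 fold change -0.60 ± 0.19 (SE), adjusted p = 0.0338). At the later ages Polr1a did not pass the test, with 80.2, 49.7 and 61.4 CPM in P2 cells and 76.4, 88.9 and 88.8 CPM in P1 cells at D12 (log2 fold change -0.39 ± 0.19 (SE), adjusted p = 0.103). At D49 Polr1a had 50.5, 65.5 and 83.2 CPM in P2 cells and 91.1, 68.1 and 88.01 CPM in P1 cells (log2 fold change -0.27 ± 0.19 (SE), adjusted p = 0.304), and the libraries overlapped at both ages. The D5 call of Polr1a was lost without a filter on low counts (0.0844) and in 5 of the 6 fits without a single library, and whether the subunits differ from each other was not tested.

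All 4 genes of small nucleolar ribonucleoproteins were lower in P2 cells at D12 and D49, and 3 of 4 at D5. Dkc1 encodes dyskerin, the pseudouridine synthase of H/ACA particles. It had 131, 118 and 93.04 CPM in P2 cells of D12, against 473, 377 and 476 CPM in P1 cells (log2 fold change -1.93 ± 0.18 (SE), adjusted p = 8.31e-08). At D49 Dkc1 had 108, 169 and 210.3 CPM in P2 cells, against 232, 257 and 265 CPM in P1 cells (log2 fold change -0.59 ± 0.17 (SE), adjusted p = 0.015), where P2 libraries 2 and 3 lie nearest to P1 cells, and the D49 call was lost in a fit of the compared libraries alone (0.171). Nop56 and Nop58 form the core of box C/D particles. Nop56 had 194, 195 and 180.1 CPM in P2 cells of D5, against 384, 319 and 359.5 CPM in P1 cells (log2 fold change -0.87 ± 0.10 (SE), adjusted p = 2.59e-06), and Nop58 had 118, 128 and 114 CPM in P2 cells, against 268, 268 and 284 CPM in P1 cells (log2 fold change -1.16 ± 0.14 (SE), adjusted p = 6.57e-06). Fbl, the methyltransferase of the same particles, did not pass at D5, with 22.6, 24.96 and 28.8 CPM in P2 cells and 18.3, 33.5 and 51.1 CPM in P1 cells (log2 fold change -0.40 ± 0.32 (SE), adjusted p = 0.486), and its log2 fold change was -0.97, adjusted p = 0.0263 at D12 and -1.60, adjusted p = 0.00169 at D49. The D12 call of Fbl was lost without P1 library 1 (0.0967) or P2 library 1 (0.109) or 2 (0.116), and the D49 call without P2 libraries 2 and 3 together (0.118).

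All 6 nucleolar protein genes were lower in P2 cells at all 3 ages. Nolc1, which binds small nucleolar ribonucleoproteins in the nucleolus, had 106, 119 and 95.5 CPM in P2 cells of D5, against 269.9, 235 and 249 CPM in P1 cells (log2 fold change -1.21 ± 0.14 (SE), adjusted p = 2.59e-06). The separation of Nolc1 was of like size at D12 (log2 fold change -1.25, adjusted p = 8.30e-07) and D49 (-1.18, adjusted p = 3.36e-06). Ncl encodes nucleolin, an abundant RNA-binding protein of the nucleolus. At D5 Ncl had 584, 599.9 and 567 CPM in P2 cells, against 1178, 1152 and 1197 CPM in P1 cells (log2 fold change -0.98 ± 0.13 (SE), adjusted p = 1.40e-05). At D12 Ncl had 493, 501 and 469 CPM in P2 cells, against 662, 610.4 and 609.6 CPM in P1 cells (log2 fold change -0.33 ± 0.13 (SE), adjusted p = 0.0394). At D49 it had 413, 282 and 235 CPM in P2 cells, against 849, 933 and 955 CPM in P1 cells (log2 fold change -1.53 ± 0.13 (SE), adjusted p = 4.89e-08). The Ncl difference was smallest at D12, where the call was lost without a filter on low counts (0.164) and without any single library of the pair.

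Npm1 encodes nucleophosmin, a histone and ribosome chaperone of the nucleolus, and Mybbp1a a nucleolar protein that binds the transcription factor Myb. Npm1 had 499, 376 and 387 CPM in P2 cells of D49, against 856, 941 and 907 CPM in P1 cells (log2 fold change -1.07 ± 0.09 (SE), adjusted p = 6.83e-08). Mybbp1a had 132, 108 and 67.4 CPM in P2 cells of D49, against 304, 341 and 287 CPM in P1 cells (log2 fold change -1.58 ± 0.17 (SE), adjusted p = 1.10e-06). For both genes all P2 libraries of any age lay below all P1 libraries.

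Of the 40S processing genes, 9 of 9 were lower in P2 cells at D5 and D12 and 8 of 9 at D49. Rrp12, an export factor of pre-ribosomal particles, showed the lowest log2 fold change of this group. It had 16.01, 5.78 and 8.59 CPM in P2 cells of D49, against 67.2, 67.05 and 59.7 CPM in P1 cells (log2 fold change -2.64 ± 0.25 (SE), adjusted p = 2.02e-07). At D5 Rrp12 had 25.6, 34.1 and 30.4 CPM in P2 cells, against 68.8, 77.9 and 67.4 CPM in P1 cells (log2 fold change -1.22 ± 0.22 (SE), adjusted p = 0.00049). Utp20, a large component of the small-subunit processome, had 9.37, 7.78 and 9.96 CPM in P2 cells of D12, against 26.6, 22.97 and 34.9 CPM in P1 cells (log2 fold change -1.61 ± 0.22 (SE), adjusted p = 9.04e-06). Heatr1, another processome subunit, was the exception at D49, with 29.5, 39.8 and 46.5 CPM in P2 cells and 51.96, 56.4 and 42.03 CPM in P1 cells (log2 fold change -0.34 ± 0.19 (SE), adjusted p = 0.176), where the libraries overlapped.

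Of the 60S processing genes, 10 of 11 were lower in P2 cells at D5 and 11 of 11 at D12 and D49. Nop2 encodes a methyltransferase of 28S ribosomal RNA. It had 69.1, 56.8 and 65.5 CPM in P2 cells of D5, against 154, 122 and 143 CPM in P1 cells (log2 fold change -1.10 ± 0.15 (SE), adjusted p = 2.02e-05). At D49 Nop2 had 50.8, 47.2 and 38.1 CPM in P2 cells, against 134, 109 and 126 CPM in P1 cells (log2 fold change -1.41 ± 0.15 (SE), adjusted p = 1.13e-06). Wdr12, which forms the PeBoW complex with Pes1 and Bop1, had 34.2, 28.2 and 23.9 CPM in P2 cells of D12, against 88.7, 81.03 and 93.5 CPM in P1 cells (log2 fold change -1.58 ± 0.16 (SE), adjusted p = 3.30e-07). Ftsj3, a methyltransferase of ribosomal RNA precursors, had 53.8, 29.5 and 33.5 CPM in P2 cells of D49, against 119, 127 and 113 CPM in P1 cells (log2 fold change -1.59 ± 0.16 (SE), adjusted p = 4.77e-07). For each of these 3 genes the 9 P2 libraries lay below the 9 P1 libraries.

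Other genes of these pathways, listed apart from the 36, were counted in the same fits. Of 30 other 60S processing genes, 22, 19 and 18 were lower in P2 cells at D5, D12 and D49 and 0, 0 and 2 were higher. Of 30 other 40S processing genes, 19, 24 and 17 were lower and none was higher. Other textbook targets of Myc were lower for 12, 12 and 11 of 16 genes, among them Nme1, a nucleoside diphosphate kinase, with a log2 fold change of -1.95, adjusted p = 3.53e-09 at D12. The other polyamine genes did not share one direction: Eif5a, the translation factor that carries the spermidine-derived residue hypusine, averaged 689 ± 37.8 CPM in P2 cells and 1934 ± 222 CPM in P1 cells of D12 (-1.46, adjusted p = 5.94e-09). Sat1, which acetylates polyamines for export and breakdown, was higher in P2 cells of D12, with 314 ± 17.2 CPM in P2 cells and 135 ± 10.2 CPM in P1 cells (1.24, adjusted p = 1.41e-06). Of 12 genes for other subunits and factors of RNA polymerase I, 2, 5 and 4 were lower and 0, 1 and 0 higher. Mxd1, a partner of Max that opposes Myc, was higher in P2 cells at D12, with 367 ± 37.9 CPM in P2 cells and 187 ± 11.9 CPM in P1 cells (1.00, adjusted p = 1.00e-05).

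Ribosomal protein genes did not follow the processing genes at D5 and D12, whereas at D49 more of them were lower than higher in P2 cells. Of 76 tested, 6 were higher and 0 lower in P2 cells at D5, 49 higher and 6 lower at D12, and 4 higher and 27 lower at D49. Of all 14696 genes tested, 998, 2588 and 2441 were higher and 1234, 3497 and 1900 lower. Within P1 cells, 50 of the 76 were lower and 1 higher at D12 than at D5. At D49, 44 were higher and 2 lower than at D12, and 0 were called against D5. The part of the P1 libraries of D12, with more detected genes, was not tested. Within P2 cells, 3 of the 76 were lower and 0 higher at D12 than at D5. At D49, 11 were lower and 2 higher than at D12, and 50 were lower and 0 higher than at D5. The part of P2 libraries 2 and 3 of D49 in this was not tested. Cell cycle genes were lower in P2 cells, with 12, 29 and 23 of 29 genes at the 3 ages. Genes of the T cell receptor response were lower in P2 cells for 9, 8 and 6 of 18 genes and higher for 0, 4 and 3. Markers of CD8 and double-positive thymocytes also moved with the sort, with 1, 3 and 3 of the 4 markers tested lower and a summed level in P2 cells of 37.9 to 47.1 CPM at D5, 26.4 to 32.9 CPM at D12 and 36.8 to 55.3 CPM at D49, against 56.3 to 62.8, 76.6 to 82.0 and 100.1 to 107.7 CPM in P1 cells. Ptcra, which encodes the pre-T alpha chain, was at 0 in both populations at D5 and D49. Summed B cell markers were higher in P2 cells, with 342 to 382, 218 to 268 and 241 to 295 CPM, against 103 to 158, 138 to 169 and 115 to 131 CPM in P1 cells. Of the 5 B cell markers tested, 1, 1 and 2 were higher and 0, 1 and 0 lower. In P2 cells Ms4a1 was at 0 at D5 and D12, Cd22 at D5 and Pax5 at D12. Summed endothelial markers were higher too, with 355 to 380.2, 373 to 395 and 296 to 385 CPM in P2 cells, against 188 to 220.3, 177 to 228 and 241 to 258 CPM in P1 cells. Of the 4 endothelial markers tested, 1, 1 and 2 were higher and 0, 3 and 0 lower. The part of these cell types and of the cell cycle in the differences of the 36 genes was not tested.

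The promoters of the genes were read for the sequence CACGTG, the E-box bound by Myc with Max, which reads the same on both strands. The window ran from 250 bases before to 50 bases after the RefSeq start (GRCm38.p6), and 29 of the 36 genes had a promoter in the table. Of these, 7 held CACGTG (24.1%, exact 95% interval 10.3 to 43.5%). The motif was in 2187 of all 27025 genes with a promoter (8.09%) and in 1191 of the 10430 of them tested in the thymus (11.4%). A gene with several promoters was counted once, with a match in any of them. The counts are a description of letters, and a match is not a bound site. The 7 genes were Nop2, Pes1, Mybbp1a, Ltv1, Utp20, Tsr1 and Wdr43. The stretch from 80 bases before to 30 bases after the start is printed for 4 of them and for Odc1, whose whole window held no match. Capitals mark CACGTG, which begins 60 bases before the start in Nop2 and at base 3, 25 and 18 after it in Pes1, Tsr1 and Wdr43. The stretches lie on the plus strand at chr6:125131803-125131912 (Nop2), chr11:3963895-3964004 (Pes1), chr11:74898000-74898109 (Tsr1), chr17:71616135-71616244 (Wdr43) and chr12:17544793-17544902 (Odc1).
Nop2: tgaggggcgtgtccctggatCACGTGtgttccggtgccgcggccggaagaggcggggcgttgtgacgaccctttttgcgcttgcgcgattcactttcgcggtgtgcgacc
Pes1: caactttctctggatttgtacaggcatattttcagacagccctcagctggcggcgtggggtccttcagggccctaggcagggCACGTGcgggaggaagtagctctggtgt
Tsr1: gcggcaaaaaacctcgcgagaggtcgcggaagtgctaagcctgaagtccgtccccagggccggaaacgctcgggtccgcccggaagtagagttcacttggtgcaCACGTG
Wdr43: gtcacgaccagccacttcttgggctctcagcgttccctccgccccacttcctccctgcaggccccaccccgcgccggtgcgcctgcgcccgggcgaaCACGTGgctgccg
Odc1: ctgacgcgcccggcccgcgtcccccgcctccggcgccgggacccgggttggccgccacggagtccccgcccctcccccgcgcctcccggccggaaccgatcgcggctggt

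Tsr1 and Wdr43, which act in 40S maturation, and Pes1, of the 60S PeBoW complex, were lower in P2 cells at all 3 ages with the motif, and so was Odc1 without it in this window. Tsr1 had 40.9, 39.5 and 38.3 CPM in P2 cells of D12, against 80.7, 70.4 and 85.00 CPM in P1 cells (log2 fold change -0.96 ± 0.20 (SE), adjusted p = 0.000709). Wdr43 had 120.01, 102 and 94.4 CPM in P2 cells of D12, against 207, 203 and 191 CPM in P1 cells (log2 fold change -0.90 ± 0.12 (SE), adjusted p = 6.53e-06).

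With age, the genes moved less than between populations. In P1 cells, 2 of the 36 genes were higher and 5 lower at D12 than at D5, where 18.3% of all genes tested were called. At D49 against D12, 2 were higher and 4 lower (background 23.7%), and at D49 against D5, 0 were higher and 4 lower (10.6%). These shares are near or below the background. In P2 cells, 0 were higher and 5 lower at D12 than at D5 (background 5.16%), and 35 of the 36 log2 fold changes were below 0. At D49 against D12, 4 were higher and 4 lower (15%). At D49 against D5, 1 was higher and 14 lower, where 25.8% of all genes were called and 11.1% were lower. The median log2 fold change of the 36 genes at D49 against D5 was -0.21 in P1 cells and -0.36 in P2 cells, where all genes tested had 0.00 and 0.08. Whether P2 cells changed differently from P1 cells between D5 and D49 was tested directly. Of the 36 genes edgeR called none (background 0.374%) and DESeq2 called 2. An unadjusted edgeR p under 0.05 was found for 9 of the 36, against 2098 of all 14696 genes tested. Without P2 library 1 of D49 the edgeR count of called genes was 6.

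Srm and Ncl differed between ages in both populations. For P1 cells of D12, age cannot be told apart from the higher number of detected genes and the lower Cd4 of these libraries. Srm in P1 cells had 55.99, 95.1 and 127 CPM at D5, 225, 178 and 208 CPM at D12 and 131, 113 and 151 CPM at D49, with D12 above D5 (log2 fold change 1.09 ± 0.26 (SE), adjusted p = 0.00841); without D5 library 1 the adjusted p was 0.05005. In P2 cells it ran the other way, and was lower at D12 than at D5 (log2 fold change -1.43 ± 0.28 (SE), adjusted p = 0.0034) and higher at D49 than at D12 (log2 fold change 1.06 ± 0.29 (SE), adjusted p = 0.0214). The rise at D49 was lost without P2 library 1 (0.0972) or 2 (0.0821) of D12 or library 3 of D49 (0.0645), and without both D49 libraries named above (0.169). Ncl in P1 cells fell at D12 relative to D5 (log2 fold change -0.94 ± 0.13 (SE), adjusted p = 0.000205) and rose at D49 relative to D12 (log2 fold change 0.59 ± 0.13 (SE), adjusted p = 0.003). In P2 cells Ncl was lower at D49 than at D5 (log2 fold change -0.90 ± 0.13 (SE), adjusted p = 3.38e-05). Dkc1 in P1 cells was higher at D12 than at D5 (log2 fold change 0.52, adjusted p = 0.0361) and lower at D49 than at D12 (-0.76, adjusted p = 0.00417), and the D12 call was lost without any single library of the pair (0.0528 to 0.124).

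Myc did not differ detectably between D5 and D12 in either population and was lower at D49 than at D5 in both. In P1 cells its log2 fold change was 0.00, adjusted p = 0.992 at D12 against D5, -0.54, adjusted p = 0.0235 at D49 against D12 and -0.53, adjusted p = 0.0389 at D49 against D5. In P2 cells its log2 fold change was -0.05, adjusted p = 0.945 at D12 against D5, and Myc was lower at D49 than at D5 (log2 fold change -0.51 ± 0.17 (SE), adjusted p = 0.0283). The P1 call of D49 against D5 was lost without any single library of the pair (0.0685 to 0.174) and the P2 call without D49 library 2 (0.127) or D5 library 1 (0.0865), 2 (0.0598) or 3 (0.0555), or with the compared libraries alone (0.176). Npm1 in P2 cells had 704, 703 and 677 CPM at D5, 576, 552 and 549 CPM at D12 and 499, 376 and 387 CPM at D49, and the libraries of D49 lay below those of both other ages (log2 fold change -0.71 ± 0.09 (SE), adjusted p = 1.22e-05 for D49 against D5). Rrp12 in P2 cells fell at D49 relative to D5 (log2 fold change -1.54 ± 0.25 (SE), adjusted p = 0.000144), while Heatr1 was higher (log2 fold change 0.59 ± 0.19 (SE), adjusted p = 0.0283), a call lost without P2 libraries 2 and 3 of D49 (0.792). Odc1, Slc19a1, Polr1a and Polr1b had no called change with age in P1 cells, and their log2 fold changes at D49 against D5 in P1 cells were 0.48, 0.05, -0.23 and -0.23.

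The age counts rest on few libraries. The count of 8 for P2 cells at D49 against D12 was 0 without P2 libraries 2 and 3 of D49 and 0 in a fit of the compared libraries alone. It was 2 without P2 library 2 of D12, 3 without library 2 of D49, 4 without library 1 or 3 of D12 or library 3 of D49, and 12 without library 1 of D49. The count of 15 at D49 against D5 in P2 cells was 8 without libraries 2 and 3 of D49 and 9 without library 1 of D5. The 5 genes lower in P2 cells at D12 than at D5 became 2 without any single library of the pair. For P1 cells, the 7 genes of D12 against D5 became 3 without D5 library 1 and 4 without D12 library 2, and the 6 of D49 against D12 became 3 without library 1 or 3 of either age. The 4 of D49 against D5 became 0 without D49 library 1, 1 without D5 library 3 and 2 without any other library of the pair. Cell cycle genes moved with age too, with 28 of 29 lower at D49 than at D5 in both populations. Markers of macrophages and monocytes moved with age in P2 cells, with a sum of 8.33 to 18.2 CPM at D5, 10.6 to 13.4 CPM at D12 and 27.9 to 157 CPM at D49, where Cd14 was at 0. Of the 8 tested, 6 were higher and 1 lower at D49 than at either other age. Summed hepatocyte markers in P2 cells were 4.73 to 13.8 CPM at D5, 15.3 to 19.1 CPM at D12 and 20.4 to 88.03 CPM at D49, and 2 of 2 tested were higher at D49 than at D5. The part of the cell cycle and of these cells in the age changes was not tested.

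In peripheral Treg cells Odc1 had the largest differences from spleen among the 36 genes. It was higher than in spleen in all 4 PBS-labelled tissues and in DT-labelled VAT and ear skin, the comparisons made. Odc1 had 125, 138, 176 and 49.8 CPM in PBS-labelled VAT, 231, 315 and 381 CPM in ear skin, 258, 195 and 330.3 CPM in lung and 232, 261 and 242 CPM in liver, against 21.9, 12.2 and 26.7 CPM in PBS-labelled spleen. The lowest tissue library, VAT library 4, lay above the highest spleen library, and the log2 fold changes over spleen were 4.05 ± 0.36 (SE), adjusted p = 1.74e-10 for ear skin and 3.78 ± 0.35 (SE), adjusted p = 1.44e-09 for lung. For liver it was 3.67 (adjusted p = 1.80e-09) and for VAT 2.71 (adjusted p = 1.73e-07). In the DT-labelled arm Odc1 had 91.5, 88.8, 86.3 and 58.3 CPM in VAT and 216, 203 and 378 CPM in ear skin, against 30.2, 13.4 and 27.9 CPM in spleen, with log2 fold changes of 1.82, adjusted p = 0.000134 for VAT and 3.50, adjusted p = 2.80e-09 for ear skin. Under all 11 or 12 alternatives of each of these 6 comparisons Odc1 stayed higher and called, with a highest adjusted p of 0.00436. In the order of its 16 group means Odc1 fell into 4 tiers whose neighbours do not overlap: ear skin, liver and lung (241 CPM and above), VAT (122 and 81.2 CPM), spleen and P1 cells (18.1 to 25.01 CPM), and P2 cells (9.28 CPM and below).

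**Figure D3:**
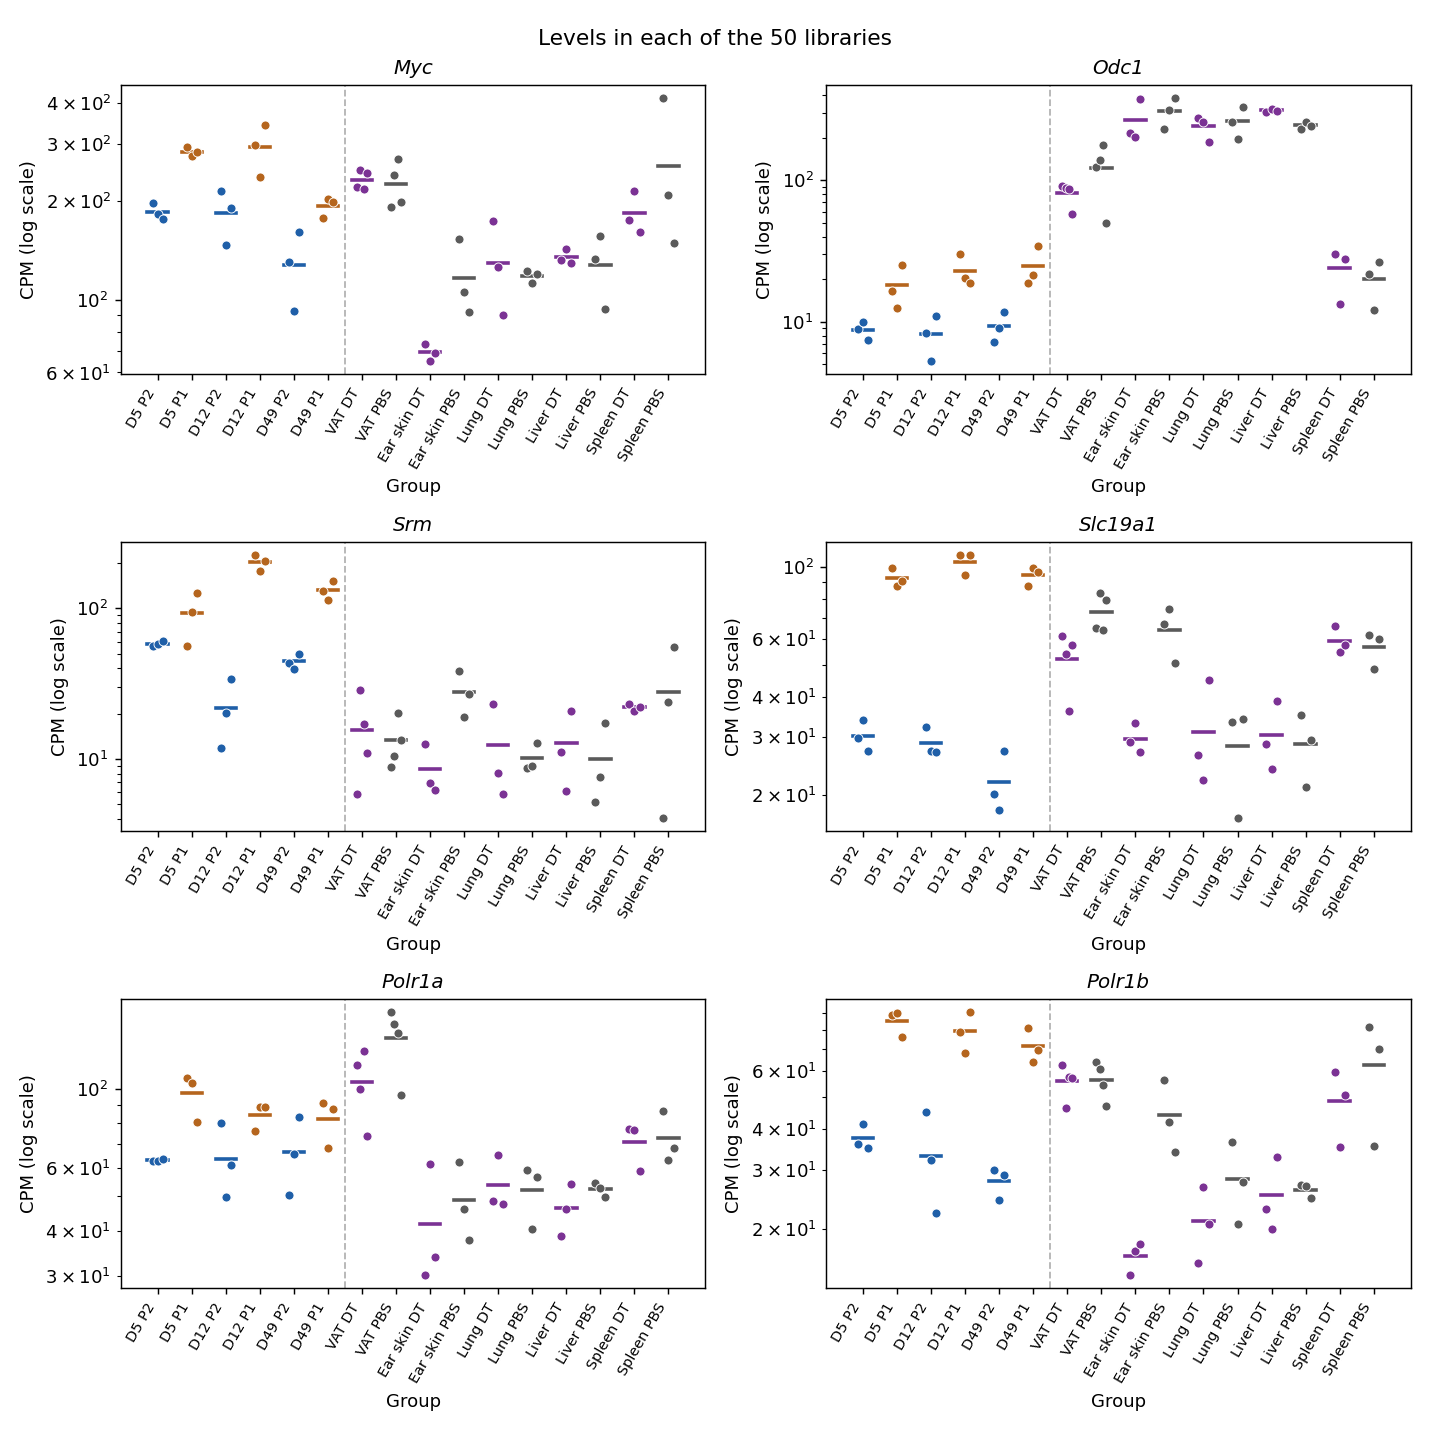
CPM (log axis) of Myc, Odc1, Srm, Slc19a1, Polr1a and Polr1b in the 50 libraries; points are libraries and bars group means, with P2 and P1 progenitors left of the dashed line and DT-labelled and PBS-labelled Treg cells right of it. Odc1 averages 241 CPM or more in ear skin, lung and liver and 25.01 CPM or less in spleen and thymus, while Srm and Slc19a1 are highest in P1 cells.

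The other genes did not follow Odc1. In PBS-labelled VAT against spleen, 2 of the 36 genes were higher and 0 lower, where 14.9% of all 17731 genes tested were called. The second was Polr1a, the largest subunit of RNA polymerase I, with 164, 151, 144 and 96.3 CPM in VAT, against 86.6, 63.3 and 68.2 CPM in spleen (log2 fold change 1.04 ± 0.23 (SE), adjusted p = 0.00115). All 4 VAT libraries lay above the 3 spleen libraries, and Polr1a had its highest mean of all 16 groups there. In the DT-labelled arm Polr1a had 117, 100.1, 127 and 73.7 CPM in VAT and 77.1, 76.6 and 59.03 CPM in spleen and did not pass the test (log2 fold change 0.61 ± 0.23 (SE), adjusted p = 0.0961). In that arm, 1 gene (Odc1) was called in VAT against spleen (background 8.85%). Myc did not differ detectably in VAT, with 192, 241, 269.7 and 199 CPM in PBS-labelled VAT and 414, 209 and 149 CPM in spleen (log2 fold change -0.05 ± 0.23 (SE), adjusted p = 0.92). The count of 2 in PBS-labelled VAT was 4 without spleen library 3.

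In liver and lung more of the genes were lower than in spleen. In PBS-labelled liver, 16 were lower and 1 higher, where 17% of all genes were called and 7.85% lower, and the median log2 fold change was -0.62 against -0.02 over all genes. In PBS-labelled lung, 10 were lower and 1 higher (15.9% called, 7.79% lower), with a median of -0.35 against 0.04. In PBS-labelled ear skin, 4 were lower and 2 higher, below the background of 23.7%. In DT-labelled ear skin against DT-labelled spleen, 17 were lower and 1 higher (22.1% called, 11.6% lower), with a median of -0.62 against 0.13. The PBS-labelled comparisons share the same 3 spleen libraries and both DT-labelled ones share theirs, so they are not independent of each other.

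**Figure D4:**
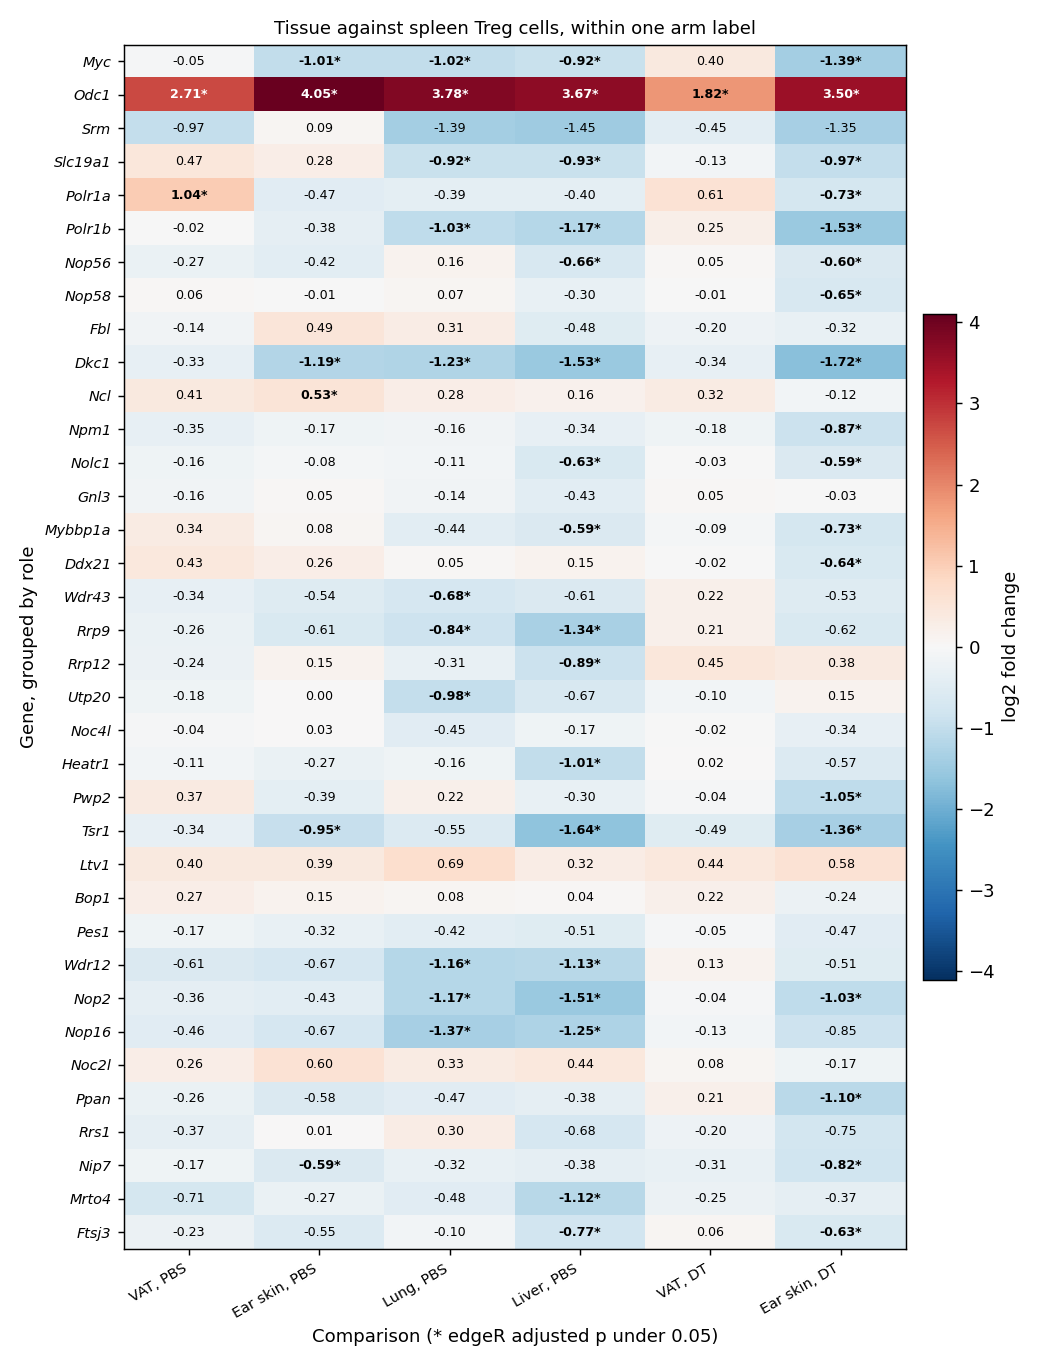
Log2 fold change over spleen of the same arm for the 36 genes (rows, by role) in 6 comparisons (columns); red is higher and blue lower in the tissue, and * marks adjusted p under 0.05 by edgeR. Odc1 is starred and higher in all 6 columns (1.82 to 4.05), and the blue starred cells are most frequent in liver (16 genes) and DT-labelled ear skin (17 genes).

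Dkc1, the dyskerin gene, was lower than in spleen in liver, lung and ear skin. It had 60.2, 66.9 and 55.1 CPM in PBS-labelled liver, 75.2, 76.6 and 70.2 CPM in lung and 96.5, 63.8 and 63.5 CPM in ear skin, against 278, 161 and 117 CPM in spleen. The fold changes passed the test for liver (log2 fold change -1.53 ± 0.22 (SE), adjusted p = 5.15e-06), lung (-1.23, adjusted p = 0.00012) and ear skin (-1.19, adjusted p = 0.000108), and in all 11 alternatives of each. In DT-labelled ear skin Dkc1 had 28.2, 48.1 and 39.4 CPM, against 125, 150.3 and 114 CPM in DT-labelled spleen (log2 fold change -1.72 ± 0.23 (SE), adjusted p = 7.72e-07). Spleen library 1 was the highest of its group for Dkc1 and for Myc, and had 142 CPM of Foxp3 and 990.1 CPM of Il2ra, against 300.2 and 342 CPM of Foxp3 and 542 and 484 CPM of Il2ra in the other PBS-labelled spleen libraries.

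Myc had 154, 106 and 91.7 CPM in PBS-labelled ear skin, 122, 113 and 120.03 CPM in lung and 133, 157 and 93.7 CPM in liver. Against the spleen libraries (414, 209 and 149 CPM) its log2 fold change was -1.01, adjusted p = 0.00246 in ear skin, -1.02, adjusted p = 0.0033 in lung and -0.92, adjusted p = 0.00769 in liver. These calls rest on spleen library 1: without it the adjusted p was 0.0821, 0.114 and 0.213 for ear skin, lung and liver. In a fit of the compared libraries alone they were 0.0695, 0.0753 and 0.112. In the DT-labelled arm Myc had 73.2, 65.2 and 68.8 CPM in ear skin, against 175, 215 and 162 CPM in spleen (log2 fold change -1.39 ± 0.25 (SE), adjusted p = 9.93e-05), with no overlap, and this call held in all 11 alternatives.

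The folate carrier and the RNA polymerase I subunit Polr1b were lower in lung and liver than in spleen. Slc19a1 had 33.4, 16.98 and 34.2 CPM in PBS-labelled lung and 35.1, 21.2 and 29.5 CPM in liver, against 62.04, 48.6 and 60.03 CPM in spleen (log2 fold change -0.92, adjusted p = 0.0132 for lung, and -0.93, adjusted p = 0.012 for liver). Without library 2 of lung the adjusted p of Slc19a1 was 0.12, and without library 2 of liver 0.0704. Polr1b had 36.6, 20.7 and 27.6 CPM in lung and 27.2, 26.9 and 24.7 CPM in liver, against 81.5, 35.7 and 69.7 CPM in spleen (log2 fold change -1.03, adjusted p = 0.00537 for lung, and -1.17, adjusted p = 0.00194 for liver). Spleen library 2 lay below lung library 1, and without lung library 2 the adjusted p of Polr1b in lung was 0.0513. Srm had no called difference between any tissue and spleen, and its spleen libraries spread widely, at 4.07, 23.7 and 55.6 CPM.

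Of the processing genes, Tsr1, a GTPase-like factor of 40S maturation, had 26.3, 25.1 and 15.05 CPM in liver, against 83.9, 60.98 and 73.6 CPM in spleen (log2 fold change -1.64 ± 0.30 (SE), adjusted p = 0.000148). Nop2 (log2 fold change -1.51, adjusted p = 0.000428), Rrp9 (-1.34, adjusted p = 0.00024), Wdr12 (-1.13, adjusted p = 0.00479) and Heatr1 (-1.01, adjusted p = 0.0027) were also lower in liver. In lung the 60S factors Nop16, Wdr12 and Nop2 were lower, with log2 fold changes of -1.37, -1.16 and -1.17. In PBS-labelled ear skin Tsr1 (-0.95, adjusted p = 0.0165) and Nip7, a 60S factor (-0.59, adjusted p = 0.0489), were lower and Ncl was higher (0.53, adjusted p = 0.0224). The ear skin call of Tsr1 was lost without ear skin library 3 (0.122), that of Ncl without ear skin library 1 (0.282) or any spleen library (0.0501 to 0.0869) and that of Nip7 under 10 of 11 alternatives (0.0538 to 0.176). In DT-labelled ear skin Npm1 (-0.87, adjusted p = 0.0004) and Ppan, a 60S factor (-1.10, adjusted p = 0.000695), were lower than in DT-labelled spleen. The liver count of 17 was 10 without spleen library 1 and 7 with the compared libraries alone, and the lung count of 11 was 3 with the compared libraries alone. The count of 18 for DT-labelled ear skin was 11 without DT-labelled spleen library 5.

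Of 12 other genes of polyamine metabolism, 1, 2, 3 and 3 were higher in PBS-labelled VAT, ear skin, lung and liver than in spleen, and none was lower. Of all 17731 genes tested, 1538, 1971, 1444 and 1622 were higher and 1111, 2224, 1381 and 1392 lower. Azin1, the antizyme inhibitor that protects ornithine decarboxylase, averaged 134 ± 8.97 CPM in lung and 67.2 ± 9.30 CPM in spleen (1.07, adjusted p = 4.03e-05) and was also higher in VAT (0.61, adjusted p = 0.0098), ear skin (0.59, adjusted p = 0.0154) and liver (1.12, adjusted p = 2.19e-05). Smox, spermine oxidase, averaged 77.9 ± 32.9 CPM in lung and 16.1 ± 1.71 CPM in spleen (2.35, adjusted p = 9.38e-05). Amd1, which makes the aminopropyl donor for spermidine, was higher in lung (1.21, adjusted p = 0.000684) and liver (0.87, adjusted p = 0.014). The Max partner Mxd1 averaged 935 ± 34.5 CPM in lung and 100.01 ± 13.6 CPM in spleen (3.31, adjusted p = 9.30e-13), and its log2 fold change was 3.29, adjusted p = 5.35e-13 in liver and 1.99, adjusted p = 6.08e-09 in ear skin. Of 30 other 60S processing genes, 1, 8, 6 and 12 were lower in VAT, ear skin, lung and liver and 0, 0, 0 and 1 higher.

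T cell receptor response genes were higher in the 4 PBS-labelled tissues than in spleen, and cell cycle genes in ear skin, lung and liver. Of 18 receptor response genes, 13, 12, 13 and 14 were higher in VAT, ear skin, lung and liver and 0, 2, 0 and 2 lower. Of 29 cell cycle genes, 3, 19, 21 and 21 were higher and none was lower. Summed hepatocyte markers were also higher, at 18.7 to 37.1 CPM in VAT, 72.0 to 92.9 CPM in ear skin, 132 to 219 CPM in lung and 190.1 to 291 CPM in liver, against 3.38 to 10.03 CPM in spleen, with 1, 3, 1 and 3 of 3 tested markers higher. In spleen Apoa1, Apoa2 and Fgb were at 0. Summed B cell markers were lower, with 296 to 637 CPM in ear skin, 687 to 1118 CPM in lung and 1122 to 1524 CPM in liver, against 1535 to 1919 CPM in spleen, and 2, 1 and 0 of 8 markers passed the test as lower and 1, 0 and 0 as higher. In PBS-labelled VAT they ran from 397 to 5997 CPM, overlapping spleen. In DT-labelled VAT, summed fibroblast markers ran from 3.43 to 559 CPM, and 3 of 6 tested were higher than in DT-labelled spleen. Macrophage markers there ran from 2.14 to 127 CPM and B cell markers from 770 to 6320 CPM. Both ranges overlapped DT-labelled spleen, and 0 of 7 and 0 of 8 tested markers passed. In DT-labelled ear skin, summed fibroblast markers were at 26.6 to 31.8 CPM, against 2.39 to 4.31 CPM in DT-labelled spleen. There macrophage markers were at 21.1 to 32.8 CPM, against 7.56 to 12.2 CPM in spleen, and keratinocyte markers at 10.2 to 28.2 CPM, against 3.58 to 9.20 CPM. B cell markers were at 243 to 428 CPM, against 1442 to 1954 CPM in DT-labelled spleen, and endothelial markers at 70.7 to 107.7 CPM, against 209.00 to 225 CPM. Of the tested markers in DT-labelled ear skin, 0 of 6 fibroblast, 1 of 7 macrophage and 1 of 6 keratinocyte markers were higher. There 2 of 8 B cell and 1 of 7 endothelial markers were lower. PBS-labelled ear skin differed from its spleen in the same directions, with fibroblast markers at 19.4 to 32.6, against 1.29 to 10.3 CPM. Macrophage markers were at 13.6 to 20.9, against 10.8 to 13.3 CPM, and keratinocyte markers at 14.9 to 22.6, against 3.58 to 10.03 CPM. Endothelial markers were at 63.9 to 121, against 219 to 235 CPM. In these lists 1 of 6, 0 of 7 and 1 of 6 tested were higher and 1 of 7 lower. The part of these cells in the differences of the 36 genes was not tested.

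Between the DT-labelled and PBS-labelled arms, genes of the set were called in ear skin. There 3 of the 36 genes were lower in the DT-labelled arm and none was higher, where 0.411% of all genes tested were called. All 36 log2 fold changes were below 0, with a median of -0.51 against -0.01 over all genes. For 17 of the 36 the libraries of the arms did not overlap, but the share over all genes was not counted, so this number cannot be weighed. Polr1b had 14.5, 17.1 and 17.97 CPM in DT-labelled ear skin, against 56.4, 42.1 and 34.05 CPM in PBS-labelled ear skin (log2 fold change -1.41 ± 0.27 (SE), adjusted p = 0.0214). Slc19a1 had 28.97, 33.2 and 26.96 CPM in DT-labelled ear skin, against 66.9, 74.3 and 50.9 CPM in the PBS-labelled arm (log2 fold change -1.10 ± 0.23 (SE), adjusted p = 0.038). Srm had 12.5, 6.91 and 6.22 CPM in DT-labelled ear skin, against 38.2, 18.9 and 27.1 CPM in the PBS-labelled arm (log2 fold change -1.72 ± 0.37 (SE), adjusted p = 0.0468). The libraries of the arms did not overlap for these 3 genes, nor for Myc, which had 73.2, 65.2 and 68.8 CPM in the DT-labelled arm and 154, 106 and 91.7 CPM in the PBS-labelled arm without passing the test (log2 fold change -0.75 ± 0.20 (SE), adjusted p = 0.108). Odc1 had 216, 203 and 378 CPM in the DT-labelled arm and 231, 315 and 381 CPM in the PBS-labelled arm, with overlap (log2 fold change -0.22 ± 0.21 (SE), adjusted p = 0.867).

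**Figure D5:**
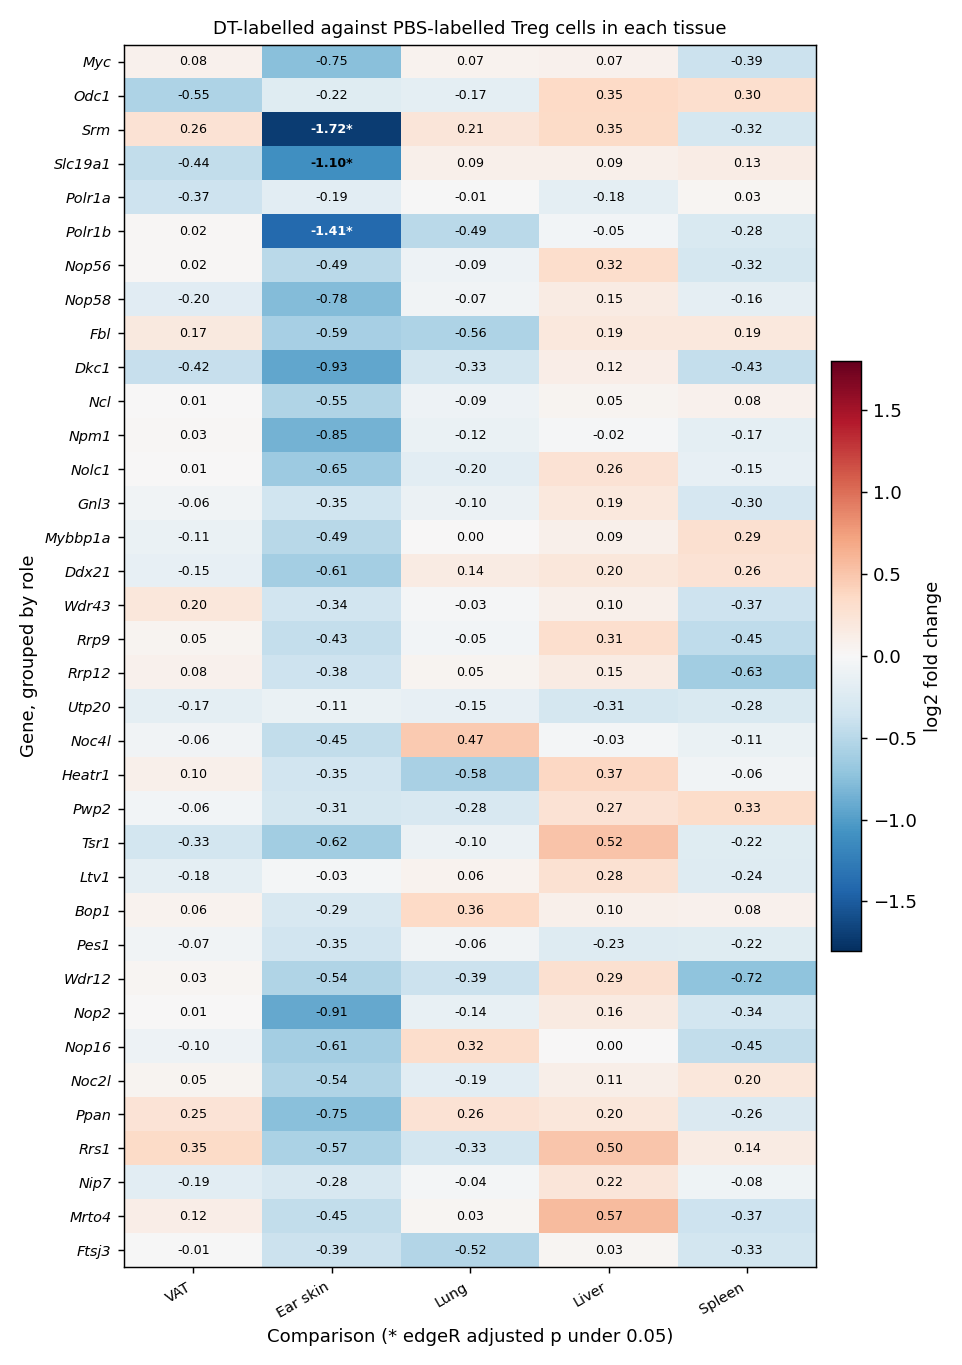
Log2 fold change of DT-labelled over PBS-labelled Treg cells for the 36 genes (rows, by role) in 5 tissues (columns); red is higher and blue lower in the DT-labelled arm, and * marks adjusted p under 0.05 by edgeR. The ear skin column is blue for all 36 genes, with stars for Srm, Slc19a1 and Polr1b, and no other column has a star.

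The ear skin count was 0 without DT-labelled library 5 or PBS-labelled library 1, and 1 without DT-labelled library 4 or 6 or PBS-labelled library 2. With all 32 peripheral libraries in the fit Srm (0.505) and Slc19a1 (0.0748) were not called. The count was 8 by DESeq2 and 7 without a filter on low counts. Macrophage markers were higher in DT-labelled ear skin, with a sum of 21.1 to 32.8 CPM, against 13.6 to 20.9 CPM in the PBS-labelled arm, and hepatocyte markers lower, with 24.99 to 48.1 CPM in the DT-labelled arm, against 72.0 to 92.9 CPM in the PBS-labelled arm. None of the markers in these lists passed the test (2 of 10 macrophage and 1 of 7 hepatocyte markers were tested), and their part was not tested. Whether the DT difference in ear skin exceeds that in spleen was tested directly. Of the 36 genes edgeR called none (background 0.0451%) and DESeq2 called 0. An unadjusted edgeR p under 0.05 was found for 8 of the 36, against 1127 of all 17731 genes tested. In that test the difference between log2 fold changes was -1.25 ± 0.37 (SE, adjusted p = 0.431) for Slc19a1, -1.15 ± 0.38 (SE, adjusted p = 0.583) for Polr1b and -1.45 ± 0.87 (SE, adjusted p = 0.823) for Srm.

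No gene of the 36 passed between the arms in the other tissues by edgeR or by DESeq2. In VAT the background was 0.124%, and 2 of the 36 had an unadjusted p under 0.05, against 955 of all 12067 genes tested. In lung, liver and spleen no gene of the whole table was called (0% each), and 4, 2 and 2 of the 36 had an unadjusted p under 0.05. Over all genes tested these were 412 of 12046 in lung, 525 of 11962 in liver and 358 of 12453 in spleen. The edgeR test of VAT against spleen for the DT difference called none of the 36 (background 0.0169%), and DESeq2 called 0. An unadjusted edgeR p under 0.05 was found for 1 of the 36, against 1160 of all 17731 genes tested. Myc had 220.5, 249, 218 and 244 CPM in DT-labelled VAT and 192, 241, 269.7 and 199 CPM in PBS-labelled VAT (log2 fold change 0.08 ± 0.12 (SE), adjusted p = 0.931). The median log2 fold change over the 36 genes was 0.01 in VAT, -0.08 in lung, 0.15 in liver and -0.22 in spleen.

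Across the 16 group means the genes moved largely together. Pearson's r of each gene with the mean of the others, over the 16 groups as a description of shared libraries and scaling, had a median of 0.86. It was highest for Nolc1 (0.98), Mybbp1a (0.95), Gnl3 (0.93), Pes1 (0.91) and Ftsj3 (0.91). Gnl3 encodes nucleostemin, a nucleolar GTPase of proliferating cells. It was lowest for Odc1 (-0.38), Noc2l (0.35), Utp20 (0.52), Ltv1 (0.57) and Polr1a (0.58). Over the 6 thymus groups alone all 36 genes had an r above 0.8, Odc1 included (0.92). These groups are the P1 and P2 cells of each age, so that r largely restates the difference between P2 and P1 cells. The share of all genes with such an r was not counted. Over the 10 peripheral groups the median r was 0.69 and 12 genes had an r above 0.8. There Odc1 (-0.73), Ltv1 (-0.40) and Noc2l (-0.0025) were below 0. Of 8587 other genes, those whose group means followed the score most closely (r 0.952 to 0.963 over 16 groups) were Mrps28, Nme1, Mtx1, C1qbp, Shmt2, Cct3, Aimp2, Rsl1d1, Ruvbl2 and Wdr83os.

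The order of group means could rarely be resolved between neighbours. Of 15 neighbouring pairs in the order of each gene, the libraries did not overlap in 2 for Myc, 3 for Odc1, 3 for Srm, 1 for Slc19a1, 0 for Polr1a and 0 for Polr1b. Myc ran between 292 CPM in P1 cells of D12 and 69.1 CPM in DT-labelled ear skin, and its resolved steps lay between DT-labelled spleen (184 CPM) and DT-labelled liver (135 CPM) and between PBS-labelled (117 CPM) and DT-labelled ear skin. Srm ran between 204 CPM in P1 cells of D12 and 8.55 CPM in DT-labelled ear skin. All peripheral means of Srm (8.55 to 28.1 CPM) lay below the P1 means of all ages (92.7 to 204 CPM). The genes lie on 17 chromosomes of mm10, 5 of them on chromosome 11, and all 36 are protein-coding in GENCODE M21. Myc lies at chr15:61985391-61990374 on the plus strand, Odc1 at chr12:17544794-17551505, Srm at chr4:148591503-148594993, Slc19a1 at chr10:77032241-77061002, Polr1a at chr6:71909053-71984935 and Polr1b at chr2:129100995-129126594, each on the plus strand.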

How the data were processed

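The authors deposited raw counts, whole numbers of reads for each gene symbol and library, in a single table. Per the submitters' processing notes, STAR 2.7.3a did the alignment on mm10 and featureCounts the counting. Which annotation, strand mode and rule for multiply matching reads they used is not given in the sources used here. Counts of genes with processed pseudogenes or overlapping neighbours, among them Npm1, are uncertain for that reason. No molecular identifiers appear in the labels' protocols, and counts are treated as reads.

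Groups come from the labels. Genes were tested with the two-sided edgeR 4.0.16 quasi-likelihood F test (R 4.3.3), with TMM scaling, a minimum count of 10 and a minimum total of 15, and Benjamini-Hochberg adjustment at 0.05 over all genes of the fit. Age and P2 against P1 used all 18 thymus libraries, tissue against spleen all 32 peripheral libraries, and DT against PBS the libraries of 1 tissue. All 36 genes passed the filter in every fit. The score used log2 CPM with a prior count of 2, and the fit was tested on simulated counts. No library was counted as a duplicate, since each pair of replicates gave a chi-square of 3.61 to 66.5 per degree of freedom. The deviations of same-numbered libraries did not correlate above 0.1 in every pair of any comparison with 3 or more pairs, so the numbers were not taken to pair libraries. This rule cannot exclude tissues shared from the same mice. For PBS-labelled ear skin against spleen, same-numbered r was 0.055 to 0.085, against -0.122 to 0.048 for other pairs. For lung it was -0.214 to 0.028, against -0.091 to 0.249.

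The 36 genes, the other lists and the tests were chosen with earlier results of these data known. Beside Myc, Odc1, Srm, Slc19a1, Polr1a and Polr1b, the text names up to 6 genes per comparison with the smallest adjusted p and a mean of at least 10 CPM. Genes named for a lost call or for the order of likeness, and Tsr1 and Wdr43 beside their promoters, were chosen after their values were seen. The alternatives were relative log expression (RLE) size factors, no filter, DESeq2 1.42.0, other sets of libraries in the fit, a replicate block and each library left out in turn. Promoter sequences are from RefSeq (GRCm38.p6). Srm, Fbl, Rrp12, Bop1, Myc, Npm1 and Rrs1 had no entry. Scaling by RLE moved the median log2 fold change of all genes by up to 0.153.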

Additional observations from a re-analysis of the deposited data

Results flagged for a closer look

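In VAT, the groups of 4 libraries, a single library stood far from the others of its group for 5 genes. Of 74 sets examined, chance alone would flag about 1 in 20. Nolc1 had 131 CPM in PBS-labelled VAT library 4, above the other 3. Rrp9 had 77.6 CPM in PBS-labelled VAT library 2, above the other 3. Odc1 had 58.3 CPM in DT-labelled VAT library 8, below the other 3. Nop56 had 181 CPM and Ncl 573 CPM in DT-labelled VAT library 7, below the other 3 libraries in each case.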

How the results depend on the processing

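The counts of genes lower in P2 than in P1 cells stayed within 1.5 times under every alternative run, and leaving out single libraries gave 29 to 32, 32 to 34 and 31 to 34 genes at D5, D12 and D49. With the compared libraries alone, the counts became 7 for P1 and 5 for P2 cells at D49 against D5, 9 for P2 cells at D12 against D5 and 0 at D49 against D12, and over spleen 2 for PBS-labelled ear skin, 3 for lung, 7 for liver and 3 for DT-labelled VAT. Without a filter on low counts they were 2 for P1 cells at D49 against D5, 7 for DT against PBS in ear skin and 6 for the age interaction. DESeq2 gave 4 for PBS-labelled VAT, 8 for DT against PBS in ear skin and 2 for the age interaction, and RLE size factors gave 2 for P1 cells at D49 against D5. Replicate numbers were shared across most groups and were not taken to pair the libraries. A replicate block gave 2 for P2 cells at D12 against D5 and 4 at D49 against D12. No paired analysis was possible for DT against PBS because the arms share no numbers. Without P2 libraries 2 and 3 of D49 the P2 counts were 0 at D49 against D12 and 8 at D49 against D5, and Dkc1 turned to -0.069 and -0.57 on the log2 scale. The causes were not tested.

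Leaving out single libraries gave 3 to 5, 3 to 4 and 0 to 2 genes for P1 cells at D12 against D5, D49 against D12 and D49 against D5, and 2, 2 to 12 and 9 to 17 genes for P2 cells. Over spleen it gave 2 to 4 for PBS-labelled VAT, 4 to 9 for ear skin, 8 to 12 for lung, 10 to 18 for liver, 1 for DT-labelled VAT and 11 to 18 for DT-labelled ear skin. Between the arms it gave 0 to 3 in ear skin and 0 in the other tissues, and for the age interaction 0 to 6. Of 9864 values of single genes under the alternatives, 9380 kept direction and side of the threshold, 350 lost a call, 132 gained one and 2 reversed.

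With RLE size factors the score was 6.92 in P1 cells of D5 and 5.77 in DT-labelled ear skin. As a median over the genes it was 6.72, 6.71 and 6.62 in P1 cells of D5, D12 and D49, 5.87 and 5.64 in P2 cells of D5 and D12, and 6.05 in DT-labelled VAT. It was 5.90 in PBS-labelled and 5.32 in DT-labelled ear skin, 6.03 in DT-labelled spleen, 5.82 in DT-labelled lung, and 5.73 in DT-labelled and 5.69 in PBS-labelled liver. From 100 bases before the start, CACGTG was in 7 of 29 genes of the set (24.1%), 5.00% of all genes with a promoter and 7.34% of those tested in the thymus. At 2521078 to 6981037 counts per library, low genes such as Odc1 in the thymus and Srm in the periphery have wide intervals.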
